A study of Mus musculus with 35 samples.

Results

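Wild-type type 1 conventional dendritic cells (cDC1) taken 5 h after an injection of poly IC were compared with resting wild-type cDC1. The members of the comparison were taken from the array titles. They are the 5 arrays of activated wild-type cells in the third set of Mycl arrays (set 3) and the 5 arrays of steady-state wild-type cells in set 2, which makes 10 of the 35 arrays of the series. All 10 arrays held labelled cDNA from total RNA of splenic cDC1 sorted by flow cytometry from Mycl+/+ mice, and no age is given. The mice of set 3 were injected intraperitoneally with 100 µg of poly IC in PBS 5 h before euthanasia. The protocol names PBS alone as the other injection, and the labels of the steady-state arrays do not say whether those mice received it. The remaining arrays of the series are cDC1 that lack Mycl or Mxd1 or are heterozygous for Mycl, and poly IC-treated wild-type cells of the Mxd1 set. Of these, the Mycl-deficient arrays are used here for differences between sets and for values beside those of single genes. The titles number biological replicates and do not tell whether each array is its own mouse, so the p-values measure the spread between these samples, which may be technical in part.

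Poly IC is a synthetic double-stranded RNA that stands in for a viral genome. It is read by TLR3 in endosomes, a receptor that cDC1 carry at high levels, and by RIG-I and MDA5 in the cytosol of many cells, and these sensors drive type I interferon production. Interferon binds its receptor on the same and on neighbouring cells and, through JAK-STAT signalling, switches on the interferon-stimulated genes. Activated cDC1 mature at the same time: they raise costimulatory ligands, turn to CCR7-guided migration and lower the uptake of new antigen, which equips them to prime CD8 T cells.

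Levels are log2 RMA values minus the median of the same array, so that a value of 0 is the median of that array. The array is a whole-transcript Affymetrix design, and RMA is the summary that the authors deposited. Pairs of arrays shared 14.69 and 13.62 exactly equal values on average within sets 2 and 3 and 0.41 across them, as in sets normalized separately, and centring removes only the shift in the median. Sex-linked genes differed too: Xist stood at a mean of 4.98 in the resting arrays and between −1.38 and −1.13 in the poly IC arrays, while the Y-linked Eif2s3y was high only in the latter. Treatment, set and sex therefore cannot be told apart in these 10 arrays, and genes of the X and Y chromosomes were left out. A fall in the RNA of a whole cell cannot be seen on this scale either. In sorted bulk samples, fewer cells of a type and less RNA per cell cannot be told apart.

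Of the 13763 autosomal genes tested, 17 were higher and 23 were lower after poly IC in the strict test, which asks whether a difference exceeds 1 log2 unit (limma treat, Benjamini-Hochberg adjusted p under 0.05). These are 0.124 and 0.167% of the genes tested. The 40 genes were all free of overlap between the 5 resting and the 5 poly IC arrays, which follows largely from the test that chose them. Genes without overlap were not counted over all tested genes. A second rule, a limma moderated test with adjusted p under 0.05 and a difference of at least 1, called 451 genes higher (3.28%) and 331 lower (2.4%). Of these, 37 of the genes higher and 19 of the genes lower lay below the 30th percentile, the level of the filter, in all 5 arrays of the lower group, and entered the test through the other group. Where the difference of such a gene is given below, its fold is given from the 30th percentile of each array in the lower group, as a least value. Under quantile normalization of the 10 arrays the strict test gave 13 higher and 31 lower. With each array centred on the tested genes in place of all rows, the moderated rule gave 544 higher and 254 lower.

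Poly IC arrays 1 and 4 stood apart from the other 3. Over the tested genes, arrays 2, 3 and 5 correlated with each other at 0.995 to 0.996. Array 1 correlated with the resting arrays at 0.966 to 0.970 and with arrays 2, 3 and 5 at 0.941 to 0.953, so its profile lay nearer to the resting cells. Array 4 lay between, at 0.961 to 0.964 with resting and 0.959 to 0.969 with arrays 2, 3 and 5. Without arrays 1 and 4 the strict test called 464 genes higher (3.37%) and 289 lower (2.1%), and all 40 genes of the 10-array test were among them. Because these 2 arrays were singled out for their low Ifit1, results without them are only a description beside the 10-array test. This holds for interferon genes and for every other gene that was weaker in these 2 arrays. Passing the strict test without them is therefore no separate support. Genes are said to have risen or fallen below when they passed the moderated rule over all 10 arrays, and the strict test is named where it was passed. The counts of each list are to be read beside the 3.28% of all tested genes that rose and the 2.4% that fell.

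Interferon-stimulated effector genes rose in most cases, and Ifit1 and Oasl1 of this group had the highest rises of all tested genes. Of 45 such genes tested, 37 rose and 0 fell, 3 of the 37 (Slfn5, Rnf213 and Lgals3bp) in the strict test, and 40 passed the strict test without arrays 1 and 4. The median difference of the 45 genes was 1.95 over all arrays and 2.57 without those 2, against −0.03 and −0.06 over all tested genes. Ifit1, an RNA-binding protein that blocks translation of viral messages, stood at −1.10, −1.24, −1.13, −1.28 and −1.0 in the resting arrays. In poly IC arrays 1 to 5 it stood at 0.57, 5.31, 5.29, 1.78 and 5.75. The groups did not overlap, but arrays 1 and 4 lay far below the other 3 poly IC arrays. Its rise was 4.89 ± 0.92 log2 units (here and below, the limma difference and its standard error, 5 arrays in each group), with an adjusted p of 0.00125 in the moderated limma test and 0.128 in the strict test. Without arrays 1 and 4 the rise was 6.60 ± 0.10. Ifit1 was below the 30th percentile in every resting array, and from that level it rose at least 22.8-fold, or at least 74.8-fold without arrays 1 and 4.

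Oasl1, a relative of the oligoadenylate synthetases, stood at 1.88, 1.53, 1.81, 1.33 and 2.07 at rest and at 3.55, 7.32, 7.40, 5.29 and 7.53 after poly IC. Every poly IC array lay above every resting array, again with arrays 1 and 4 lowest. The rise was 4.49 ± 0.68 (22.5-fold). Ifit3 and Ifit2 rose by 3.98 ± 0.78 and 3.94 ± 0.65, Isg20, an exonuclease, by 3.61 ± 0.61, and Rsad2, the antiviral radical-SAM enzyme viperin, by 3.18 ± 0.75. Each of these differed by 4.47 to 5.39 without arrays 1 and 4. Mx1 and Mx2, the dynamin-like antiviral GTPases, did not pass the moderated rule over the 10 arrays (1.21 and 1.55) and passed the strict test without arrays 1 and 4 (2.14 and 2.73).

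The 3 effector genes of the strict test were less uneven between the poly IC arrays than Ifit1. Slfn5, a Schlafen family member, stood at 2.52, 2.55, 2.80, 2.80 and 2.67 at rest and at 4.03, 6.09, 6.03, 5.36 and 6.29 after poly IC. It rose by 2.89 ± 0.36 (7.43-fold), with an adjusted p of 0.0493 in the strict limma test. That call was lost in 14 of 23 alternatives, among them 9 of the 10 that leave out 1 array and the replicate block (strict adjusted p = 0.105 in limma). Rnf213, a giant ubiquitin ligase, rose by 2.72 ± 0.31 and Lgals3bp, a secreted galectin-binding glycoprotein, by 2.19 ± 0.21, and each lost its strict call in 12 of 23 alternatives, the replicate block included (strict adjusted p = 0.122 and 0.0963 in limma). In array 1, Slfn5 lay above all resting arrays and below every other poly IC array.

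The promoters of 3 effector genes are shown because they carry the core of the interferon-stimulated response element, a motif found near the start of many genes that interferon switches on. The sequences are from RefSeq (build GRCm38.p6), run from 250 bases before to 50 bases after the transcription start, and have in capitals every match of its core on either strand, spelled GAAA, any 2 bases, GAAA.
Slfn5, chr11:82951852-82952151, + strand: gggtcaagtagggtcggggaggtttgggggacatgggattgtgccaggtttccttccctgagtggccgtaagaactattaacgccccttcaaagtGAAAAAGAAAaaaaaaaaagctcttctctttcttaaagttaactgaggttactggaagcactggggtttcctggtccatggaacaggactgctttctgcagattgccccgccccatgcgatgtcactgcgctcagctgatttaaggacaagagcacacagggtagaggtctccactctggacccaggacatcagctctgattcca
Ifit1, chr19:34640639-34640938, + strand: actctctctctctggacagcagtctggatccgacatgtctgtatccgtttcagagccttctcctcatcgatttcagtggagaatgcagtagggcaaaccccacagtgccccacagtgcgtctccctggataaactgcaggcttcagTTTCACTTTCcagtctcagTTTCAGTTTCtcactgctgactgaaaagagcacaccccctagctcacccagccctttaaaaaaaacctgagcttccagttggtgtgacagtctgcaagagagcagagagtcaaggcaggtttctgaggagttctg
Ifit3, chr19:34583279-34583578, + strand: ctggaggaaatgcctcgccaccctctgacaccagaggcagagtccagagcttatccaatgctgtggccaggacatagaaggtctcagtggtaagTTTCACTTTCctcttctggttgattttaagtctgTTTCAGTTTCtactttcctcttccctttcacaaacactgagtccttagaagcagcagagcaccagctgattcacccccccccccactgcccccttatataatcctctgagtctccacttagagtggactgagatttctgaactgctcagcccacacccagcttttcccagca
The Slfn5 match began at position −155 from the start, those of Ifit1 at −104 and −85, and those of Ifit3 at −156 and −122. Matches of this core on either strand were found in 3.44% of the 32851 promoters of the table and in 391 of the 10882 tested genes that have one there (3.59%). Of the 370 genes that rose and have a promoter in the table, 47 held it (12.7%), as did 12 of the 269 that fell (4.46%) and 14 of 36 interferon-stimulated effectors (38.9%). The gamma-activated site core, TTCNNNGAA on either strand, was found in 8.3% of all promoters, 7.57% of the genes that rose and 22.2% of the effectors. A match is a run of letters and was not tested as a binding site.

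**Figure D1:**
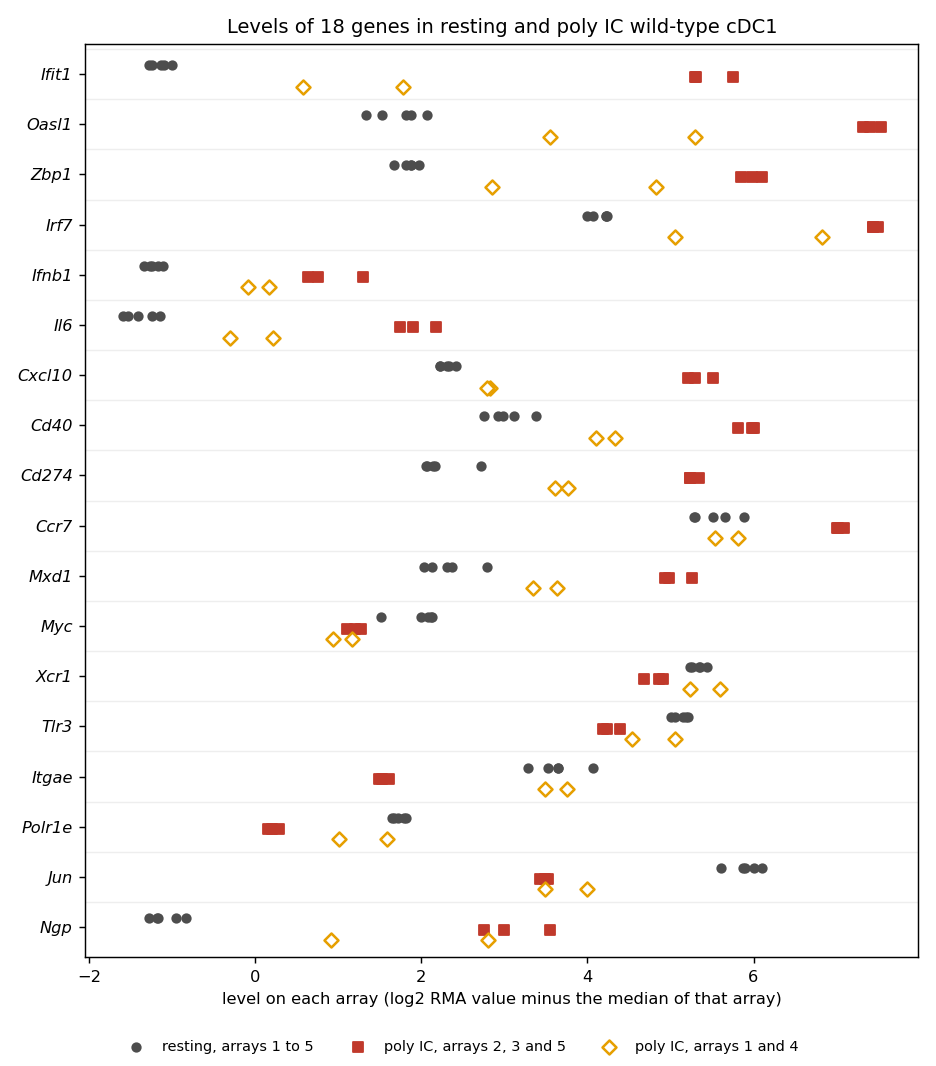
Levels of 18 genes on each of the 10 wild-type arrays (log2 RMA value minus the median of that array, horizontal axis); circles are the 5 resting arrays, squares poly IC arrays 2, 3 and 5, and open diamonds poly IC arrays 1 and 4. For Ifit1 the squares lie between 5.29 and 5.75 and the diamonds at 0.57 and 1.78, while for Jun all 5 poly IC arrays lie between 3.43 and 3.99.

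Interferon-inducible GTPases, which attack the vacuoles and membranes of intracellular pathogens, all rose: 9 of 9 tested, with a median of 1.69 and of 2.58 without arrays 1 and 4. Gbp5, a guanylate-binding protein that also promotes inflammasome assembly, stood at 1.63, 1.55, 1.00, 1.41 and 2.19 at rest and at 2.62, 5.30, 5.47, 2.36 and 5.58 after poly IC. The groups did not overlap, and arrays 1 and 4 lay within 1 unit of the highest resting array. It rose by 2.71 ± 0.65 and by 3.90 ± 0.19 without those arrays. Irgm1, an immunity-related GTPase, rose by 1.67 and Iigp1, which lines parasite vacuoles, by 2.11.

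Sensors of nucleic acids rose in part. Of 28 tested genes of sensing and interferon induction, 11 rose and 0 fell, and 11 also passed the strict test without arrays 1 and 4. Zbp1, a sensor of Z-form nucleic acids that can trigger necroptosis, stood at 1.67, 1.88, 1.81, 1.88 and 1.97 at rest and at 2.85, 5.98, 5.85, 4.83 and 6.10 after poly IC. It rose by 3.28 ± 0.53 (9.74-fold) without overlap. The cytosolic RNA sensors rose, Ddx58 (RIG-I) by 3.13 ± 0.71 and Ifih1 (MDA5) by 2.06 ± 0.46, as did their regulator Dhx58 (LGP2) by 2.18. For Ifih1, poly IC array 1 (2.47) lay within the resting range of 1.98 to 2.48. Irf7, the transcription factor that amplifies interferon production, stood at 4.07, 4.22, 4.23, 4.00 and 4.22 at rest and at 5.06, 7.44, 7.44, 6.82 and 7.50 after poly IC, a rise of 2.70 ± 0.40. Tlr3, the endosomal receptor for double-stranded RNA, did not follow them.

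Tlr3 stood at 5.15, 5.19, 5.06, 5.21 and 5.01 at rest and at 4.54, 4.39, 4.24, 5.06 and 4.19 after poly IC. Its difference of −0.64 ± 0.14 had a moderated adjusted p of 0.0036 in limma but was under 1 log2 unit, and array 4 lay within the resting range. Ticam1 (TRIF), the adaptor of Tlr3, differed by −0.70 and Mavs, the adaptor of the cytosolic sensors, by −0.20. Neither reached the moderated rule.

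Interferon genes themselves were low on these arrays. Ifnb1, interferon beta, stood between −1.34 and −1.11 at rest, below the 30th percentile of each array, and at −0.09, 0.76, 0.63, 0.16 and 1.30 after poly IC. It rose by 1.78 ± 0.22, which is at least 2.5-fold from that percentile. In the Mycl-deficient arrays of the same 2 sets the difference was 3.40. Ifna2 differed by 0.56 ± 0.16 and Ifna4 was too low to be tested. Of 20 tested genes of interferons and JAK-STAT signalling, 5 rose (Stat4, Usp18, Socs2, Stat2 and Ifnb1) and 1 fell. The gene that fell was Ifngr1, the ligand-binding chain of the interferon gamma receptor, from 6.04 to 6.22 at rest to 5.87, 4.59, 4.38, 5.45 and 4.20 (−1.24 ± 0.28).

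Stat4, which transmits IL-12 and type I interferon signals, stood at −0.99, −1.10, −0.84, −1.30 and −0.98 at rest and at 0.75, 3.41, 3.33, 0.92 and 3.66 after poly IC. The groups were separate, and the rise was 3.46 ± 0.56. Every resting value lay below the 30th percentile, from which the rise was at least 9.12-fold. The resting level itself differed between sets: Stat4 stood at a mean of 0.67 in resting Mycl-deficient cells of set 1 and at −0.90 in those of set 2. Stat2, a partner in the interferon-activated transcription factor, rose by 1.92 ± 0.37.

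Cytokine genes moved in both directions. Of 17 tested, 3 rose (Il6, Il1rn and Il15) and 2 fell (Il1b and Tnfsf13b). Il6 stood at −1.15, −1.41, −1.53, −1.59 and −1.25 at rest and at −0.30, 1.74, 1.90, 0.21 and 2.17 after poly IC, a rise of 2.53 ± 0.43. The resting values lay below the 30th percentile, and from that level the rise was at least 3.77-fold. Il15, whose product sustains memory CD8 T cells and NK cells, stood at 0.97 to 1.94 at rest and at 1.10, 3.64, 3.76, 1.93 and 3.91 after poly IC. Arrays 1 and 4 lay within its resting range, so its rise of 1.4 ± 0.51 rested on the other 3. Il27 had the same form, with 0.88 to 1.02 at rest and 0.62, 3.44, 3.58, 0.95 and 3.93 after poly IC, and did not pass the moderated rule over 10 arrays (1.53 ± 0.61). It passed the strict test without arrays 1 and 4, with a difference of 2.68 ± 0.09.

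Il1b fell from 6.17 to 6.22 at rest to 5.54, 4.52, 4.68, 5.48 and 4.54 (−1.24 ± 0.20). Il12b, the p40 chain shared by IL-12 and IL-23, stood at 4.37, 4.79, 4.85, 4.42 and 4.99 at rest and at 4.37, 5.53, 5.45, 5.08 and 5.53 after poly IC. The groups overlapped through array 1, and the difference of 0.51 ± 0.22 did not pass. Il12a, the p35 chain of IL-12, was too low to be tested, with values between −1.23 and −1.18 after poly IC. Tnf differed by −0.75 ± 0.31 and did not pass, and it differed by 1.58 between sets 1 and 2 in resting Mycl-deficient cells.

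Among 19 chemokine and chemokine receptor genes, 3 rose and 2 fell. Cxcl10, a CXCR3 ligand that draws in T and NK cells, stood at 2.33, 2.22, 2.23, 2.31 and 2.42 at rest and at 2.83, 5.21, 5.29, 2.79 and 5.51 after poly IC. Its groups were separate by a small gap in arrays 1 and 4 and a wide one in the others, and the rise was 2.02 ± 0.54. Cxcl9, the second CXCR3 ligand on the list, rose from a level already high at rest, 5.02 to 5.35, to 5.60, 6.49, 6.45, 6.14 and 6.56 (1.03 ± 0.17). Ccl5, a chemokine that draws in T cells, rose by 2.12 ± 0.62 with array 1 (2.30) inside the resting range of 1.89 to 3.24. The genes that fell were Ccr2, a receptor of blood monocytes, by 1.20 log2 units, and Ccl3 by 1.07.

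Of 22 tested costimulatory and inhibitory molecules, 11 rose and 3 fell, and the same counts passed the strict test without arrays 1 and 4. Cd40, which receives T cell help, stood at 2.98, 3.12, 2.75, 2.92 and 3.38 at rest and at 4.10, 5.81, 5.98, 4.33 and 6.01 after poly IC, a rise of 2.22 ± 0.38 (4.65-fold). Cd274 (PD-L1), a ligand that restrains T cells, stood at 2.16, 2.14, 2.05, 2.07 and 2.72 at rest and at 3.61, 5.23, 5.24, 3.77 and 5.34 after poly IC, a rise of 2.41 ± 0.35. Neither gene overlapped between groups. The second PD-1 ligand, Pdcd1lg2, rose by 2.31 ± 0.39 and Lgals9, galectin 9, by 2.85 ± 0.43. Stimulatory ligands of the TNF family rose as well, Tnfsf15 by 2.24, Cd70 by 1.60 and Tnfsf9 (the ligand of CD137) by 1.26.

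The B7 ligands Cd80 and Cd86 were high at rest and differed less. Cd80 rose from 4.30 to 4.57 at rest to 4.95, 6.0, 5.96, 5.12 and 6.10 (1.19 ± 0.22). Cd86 stood at 5.68 to 5.77 at rest and at 6.55, 6.83, 6.74, 6.45 and 6.84 after poly IC, with no overlap and little spread. Its difference of 0.95 ± 0.08 had a moderated adjusted p of 9.41e-06 in limma and stayed under 1 log2 unit. The 3 members that fell were Ctla4, an inhibitory receptor for the B7 ligands (−1.62 ± 0.14), Tnfsf18, the ligand of GITR (−1.44 ± 0.16), and Cd48, a SLAM family ligand (−1.01 ± 0.22).

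All 24 tested genes of the dendritic cell migration and maturation list had a difference above 0, against 6347 of all 13763 tested genes. Of the 24, 9 rose and 13 passed the strict test without arrays 1 and 4. The median was 0.89, or 1.39 without arrays 1 and 4. Ccr7, the receptor that guides dendritic cells to T cell zones, stood at 5.66, 5.51, 5.30, 5.28 and 5.89 at rest and at 5.54, 7.0, 7.02, 5.81 and 7.09 after poly IC. Arrays 1 and 4 lay within the resting range and the other 3 above it, and the difference of 0.97 ± 0.31 did not reach the moderated rule. Without arrays 1 and 4 it was 1.51 ± 0.12 and passed the strict test. Fscn1, the actin-bundling protein of mature dendritic cell protrusions, had a like pattern, with 3.00 and 3.79 in arrays 1 and 4 and 5.69 to 6.32 in the others against 2.87 to 4.38 at rest. Relb, the NF-kB subunit of dendritic cell maturation, rose by 1.29 ± 0.34, and Marcksl1, an actin-linked membrane protein, by 1.78.

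Of 18 tested genes of NF-kB signalling and feedback 3 rose, Tnip3 by 1.61, Relb by 1.29 and Bcl3 by 1.13, and 5 passed the strict test without arrays 1 and 4. Tnip3, an inhibitor that binds A20, stood at −0.82 to −0.60 at rest and at 0.85, 0.98, 1.12, −0.11 and 1.58 after poly IC, with array 4 lowest. Nfkbia and Tnfaip3, the feedback inhibitors I-kappa-B alpha and A20, differed by 0.44 and 0.71 and did not pass. The primary transcript of Mir155, a regulator of the activation of myeloid cells, rose from 1.05 to 1.65 at rest to 1.47, 4.56, 4.50, 1.83 and 4.75, with array 1 inside the resting range.

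Genes of antigen presentation by class I passed in part. Of 17 tested, 15 had a difference above 0, against 6347 of all 13763 tested genes. Of the 17, 2 rose, Psmb10 and Nlrc5, and the median was 0.59. Psmb10, an immunoproteasome subunit, stood at 4.27, 4.37, 4.22, 4.37 and 4.32 at rest and at 5.08, 5.85, 5.77, 5.48 and 5.91 after poly IC (1.31 ± 0.14). The peptide transporter genes Tap1 and Tap2 differed by 0.83 and 0.91. On the class II side, 0 of 11 tested genes rose and 1 fell, H2-Ob, a chain of the DO inhibitor of peptide loading. It stood at 5.20 to 5.31 at rest and at 4.77, 3.90, 3.91, 4.92 and 3.73 after poly IC (−1.02 ± 0.22). Ciita, the transcriptional activator of class II genes, differed by −0.72, and the class II chains H2-Ab1 and H2-Aa by 0.17 and 0.18.

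The markers of the lineage were present in both groups. All 29 matched genes of cDC1 identity were tested, with array medians of 4.30 to 4.59 at rest and 4.49 to 5.06 after poly IC. By gene, 1 rose and 1 fell, and the median difference was −0.27 with 20 of 29 below 0. Over all tested genes the median was −0.03, with 7416 of 13763 below 0. Without arrays 1 and 4 the median of the 29 genes was −0.45 with 22 below 0, and 3 were higher and 4 lower by the moderated rule. Xcr1, the chemokine receptor that defines the lineage, stood at 5.24, 5.35, 5.26, 5.34 and 5.44 at rest and at 5.23, 4.91, 4.86, 5.60 and 4.68 after poly IC. Its difference of −0.27 ± 0.15 did not pass and the groups overlapped. Clec9a, the receptor for dead cells, differed by −0.06 ± 0.10, Batf3 by −0.31 ± 0.10 and Irf8, with Batf3 a transcription factor that the lineage requires, by −0.37 ± 0.11. The exceptions were Ly75 (DEC-205), an uptake receptor that rose by 1.65 ± 0.30, and Itgae (CD103), which fell by 1.26 log2 units.

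Itgae stood at 3.28, 3.64, 3.65, 3.52 and 4.07 at rest and at 3.75, 1.61, 1.52, 3.49 and 1.49 after poly IC. Arrays 1 and 4 lay within the resting range and the other 3 lay well below them. Without these 2 arrays the difference was −2.09 ± 0.13. Among uptake receptors and lectins, 2 of 18 tested rose and 4 fell. Axl, a receptor for dying cells and a known interferon target, rose by 2.11 ± 0.54 with array 1 (−0.05) inside the resting range. The genes that fell were Fcgr2b, the inhibitory Fc receptor (−1.66), Cd209a (−1.61), Cd207 or langerin (−1.42) and Scarb1 (−1.13).

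Of 13 tested genes of the MYC and MAX network, 1 rose and 1 fell. Mxd1, a MAX partner that opposes MYC, stood at 2.37, 2.31, 2.03, 2.13 and 2.79 at rest and at 3.34, 4.98, 4.93, 3.63 and 5.26 after poly IC, a rise of 2.10 ± 0.36 (4.29-fold) without overlap. The gene that fell was Mxd4 (−1.08), a relative of Mxd1. Myc stood at 2.13, 1.99, 1.51, 2.08 and 2.11 at rest and at 0.94, 1.10, 1.20, 1.17 and 1.27 after poly IC. The groups did not overlap, and the difference of −0.83 ± 0.12 was alike in all 5 poly IC arrays but under 1 log2 unit. In resting Mycl-deficient cells Myc differed by 1.08 between sets 1 and 2. Mycl, the MYC family member of cDC1, differed by −0.17 ± 0.13 and Max by 0.21 ± 0.10, both with overlap.

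Of the ribosome biogenesis genes, among the classical targets of MYC proteins, few passed a test, and their median level was lower in poly IC arrays 2, 3 and 5 than at rest but not in arrays 1 and 4. The array medians of 52 tested genes were 2.17 to 2.30 at rest and 2.71, 1.61, 1.49, 2.49 and 1.42 after poly IC. Of these genes 1 fell and 0 rose, and 3 passed the strict test as lower without arrays 1 and 4. The median difference was −0.24 over 10 arrays, with 42 genes below 0, and −0.63 without arrays 1 and 4, with 50 below 0. Over all tested genes, 7416 of 13763 lay below 0 over the 10 arrays. Polr1e, a subunit of RNA polymerase I, stood at 1.82, 1.67, 1.64, 1.79 and 1.72 at rest and at 1.58, 0.15, 0.20, 1.01 and 0.29 after poly IC (−1.08 ± 0.24), with all 5 poly IC arrays below the resting ones. Rrp12 and Nat10, which act in the making of the small ribosomal subunit, were the others, at −1.33 and −1.31 without arrays 1 and 4. Genes of the cytosolic ribosomal proteins had no call in either direction by the strict or the moderated rule, with a median of 0.17 and array medians of 6.33 to 6.46 at rest and 6.5 to 6.66 after poly IC. The 10 tested housekeeping genes had no call either, with a median of 0.22 and 8 above 0. Their array medians were 4.24 to 4.28 at rest and 4.6 to 4.9 after poly IC. Small list medians are to be read beside this difference, whose cause was not tested.

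**Figure D2:**
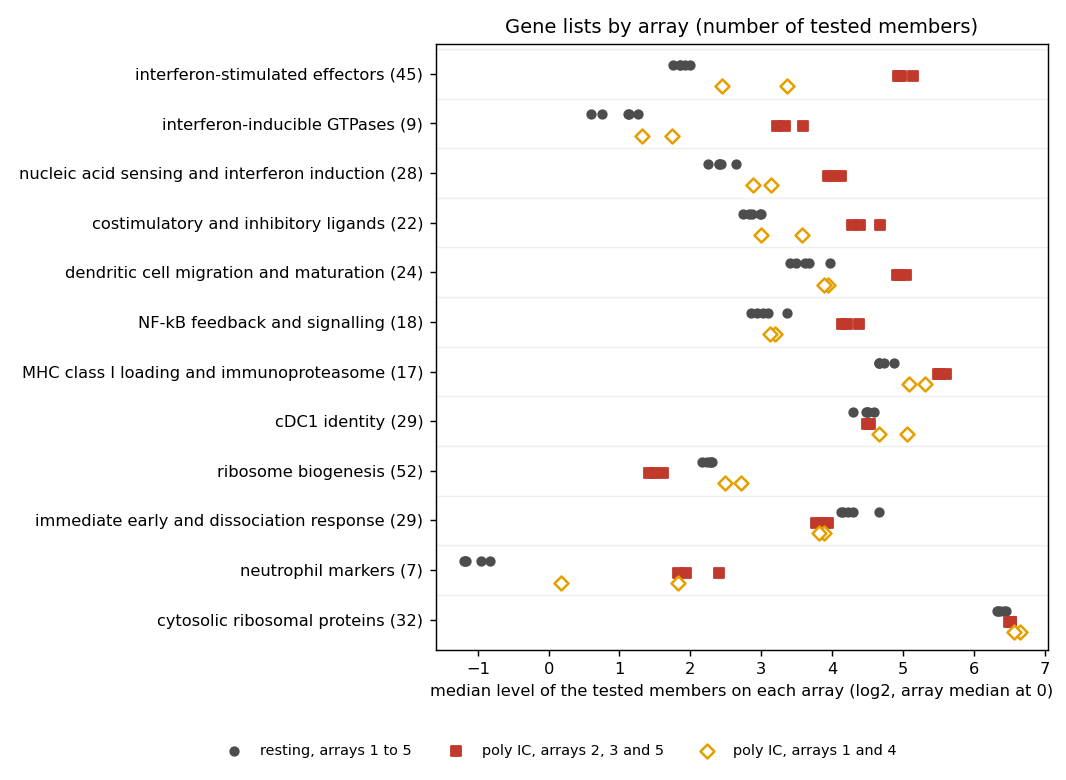
Median level of the tested members of 12 gene lists on each array (log2, array median at 0, number of members in brackets), with the symbols of the plot of single genes. For ribosome biogenesis the squares lie at 1.42 to 1.61 and the diamonds at 2.49 and 2.71, on the far side of the resting arrays at 2.17 to 2.30.

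A second pattern was shared by all 5 poly IC arrays. Of 29 tested immediate early and tissue dissociation response genes, 0 rose and 13 fell, and Jun and Rhob did so in the strict test. The median was −0.86, with array medians of 3.77 to 3.94 after poly IC against 4.12 to 4.67 at rest. Jun, a subunit of the transcription factor AP-1, stood at 6.10, 6.01, 5.61, 5.90 and 5.87 at rest and at 3.99, 3.49, 3.43, 3.49 and 3.53 after poly IC. It fell by 2.31 log2 units (SE 0.12), 4.96-fold, with an adjusted p of 0.00125 in the strict limma test. Rhob, a small GTPase induced by stress, fell by 2.04 log2 units (SE 0.12) and Egr1, an early growth response factor, by 1.63. In each of these 3 genes, arrays 1 and 4 lay nearer to the other poly IC arrays than to any resting array.

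These genes also differed between sets without any treatment. Resting Mycl-deficient cDC1 were measured in set 1 (4 arrays) and in set 2 (5 arrays). Of 13882 genes tested between them, 19 were higher in set 2 (0.137%) and 32 lower (0.231%) in the strict test, and 83 (0.598%) and 78 (0.562%) by the moderated rule. Jun was 1.91 and Rhob 1.97 log2 units higher in set 2, and in set 1 the mean of Jun was 4.05, close to its level after poly IC. Of the 40 genes of the strict test, 36 were tested between these sets and 7 were called there. All 7 (Jun, Rhob, Mir23a, Mir27a, Mir24-2, Sema7a and Rab8b) had the opposite sign, and set 2 enters the 2 comparisons with opposite sign. Of the immediate early list, 6 genes were called higher in set 2 by the moderated rule. The standard deviation of all differences was 0.52 after poly IC and 0.36 between the resting sets. Pairs of arrays within set 1 shared 1987.08 exactly equal values on average, against 14.69 and 13.62 within sets 2 and 3. Set 1 thus differs in form from the other 2 sets. Differences between sets 1 and 2 are therefore not a like measure of those between sets 2 and 3.

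**Figure D3:**
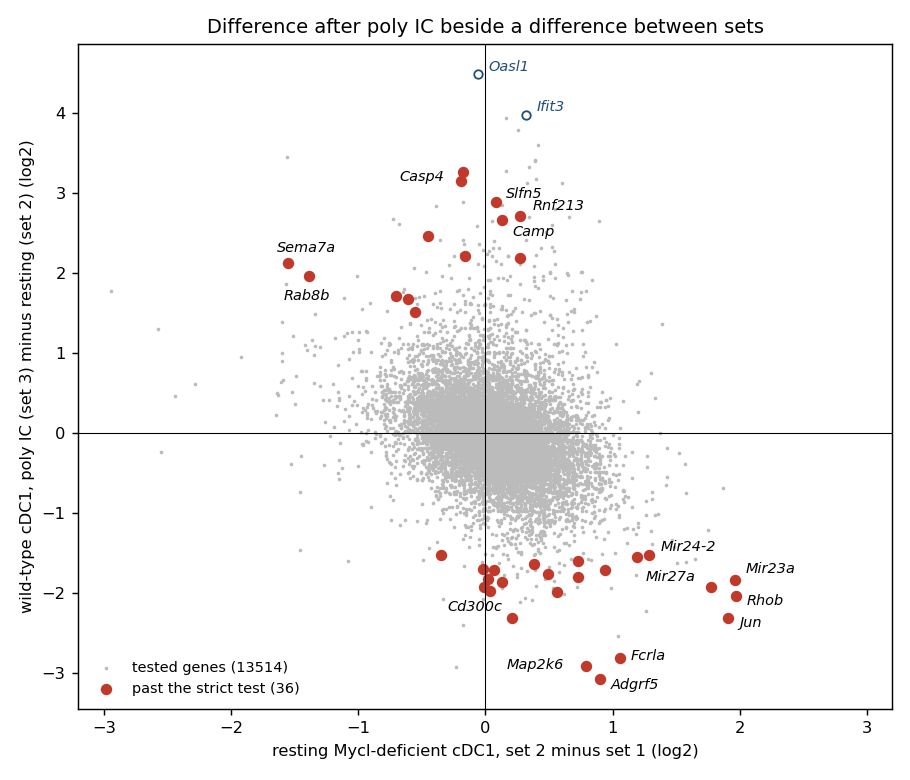
Difference between poly IC and resting wild-type cDC1 (vertical axis, log2) against the difference between sets 2 and 1 in resting Mycl-deficient cDC1 (horizontal axis, log2). Grey points are genes tested in both comparisons, red points those past the strict test on the vertical axis, and blue circles mark Ifit3 and Oasl1; Jun lies at 1.91 on the horizontal axis and −2.31 on the vertical, Casp4 at −0.19 and 3.16. Set 2 enters the axes with opposite sign.

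Of the genes called in both comparisons, 3 are microRNA genes of a cluster on chromosome 8, and their mature sequences are shown beside those of Mir155, which rose with the interferon genes. The sequences are from RefSeq (build GRCm38.p6), with the seed, bases 2 to 8, in capitals. The array rows measure RNA from the hairpin locus and not the mature strands.
mmu-miR-23a-3p, chr8:84208563-84208583, + strand: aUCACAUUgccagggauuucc
mmu-miR-27a-3p, chr8:84208727-84208747, + strand: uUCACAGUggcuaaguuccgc
mmu-miR-24-3p, chr8:84208875-84208896, + strand: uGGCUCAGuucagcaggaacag
mmu-miR-155-5p, chr16:84714143-84714165, + strand: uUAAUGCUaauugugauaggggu
No seed is shared among these 4 strands. Mir27a stood at 4.53, 4.39, 3.92, 4.31 and 4.55 at rest and at 2.42, 2.53, 2.36, 2.27 and 2.51 after poly IC, so that the poly IC arrays were nearly equal. It fell by 1.92 log2 units (SE 0.11), Mir23a by 1.84 and Mir24-2 by 1.52, all past the strict test. Mir24-2 lost its strict call in 6 of 23 alternatives, the replicate block included. Between sets 2 and 1 at rest the 3 genes differed by 1.77, 1.96 and 1.29.

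Other genes passed the strict test as well. Casp4, the mouse caspase-11 that senses cytosolic lipopolysaccharide, stood at 0.93, 0.41, 0.72, 0.85 and 0.94 at rest and at 2.85, 4.51, 4.64, 2.91 and 4.75 after poly IC. It rose by 3.16 ± 0.38 (8.95-fold) with a strict adjusted p of 0.0373 in limma, and of 22 tested apoptosis and survival genes it alone passed that test, while 6 rose by the moderated rule. Its strict call was lost in 10 of 23 alternatives, among them 8 of the 10 that leave out 1 array and the replicate block (strict adjusted p = 0.121 in limma). Gsdmd, the pore former that caspase-11 cleaves, rose by 1.24, Cflar, an inhibitor of caspase-8 activation, by 1.68 and Bcl2l11 (BIM) by 1.34.

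Ms4a6d and Ms4a6c, membrane proteins of the MS4A family, rose by 3.15 ± 0.21 and 2.46 ± 0.22. Ms4a6d stood between −2.21 and −1.94 at rest and at 0.15, 1.23, 1.31, 1.17 and 1.48 after poly IC, with array 1 lowest and array 4 lower than the other 3. It lay below the 30th percentile at rest, from which the rise was at least 3.58-fold. Tspo, a cholesterol-binding protein of the outer mitochondrial membrane, rose by 2.22 ± 0.22, and Mt2, a metallothionein, by 1.68 ± 0.10, or at least 2.67-fold from the 30th percentile that its resting values did not reach. Sema7a, a membrane-anchored semaphorin, rose by 2.13 ± 0.20 and Vdr, the vitamin D receptor, by 1.52 ± 0.09. Of these, Sema7a differed by −1.55 between sets 2 and 1 at rest. The strict calls of Ms4a6c, Tspo, Sema7a and Vdr were lost in 6, 11, 8 and 8 of 23 alternatives.

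The largest fall was that of Adgrf5, an adhesion G protein-coupled receptor. It stood at 2.07, 1.84, 0.87, 2.01 and 1.83 at rest and at −0.92, −1.44, −1.43, −1.29 and −1.65 after poly IC, a fall of 3.07 log2 units (SE 0.22). After poly IC it was below the 30th percentile, and the fall to that level was at least 5.73-fold. Between sets 2 and 1 at rest it differed by 0.90 and Map2k6 by 0.79. In Mycl-deficient cells the resting mean of Adgrf5 was 0.28 and its difference −1.61. Map2k6, a kinase that activates p38, fell from 1.90 to 2.32 at rest to 0.17, −1.09, −1.14, −0.47 and −1.43 (−2.91 ± 0.26), with array 1 highest. Fcrla, an intracellular Fc receptor-like protein, fell by 2.81 log2 units and Clec4b2, a C-type lectin, by 2.31. Their strict calls were lost in 2 and 9 of 23 alternatives.

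Cd300c, a receptor of the CD300 family, varied little within each group. It stood at 2.68, 2.70, 2.67, 2.76 and 2.64 at rest and at 0.98, 0.73, 0.74, 0.95 and 0.76 after poly IC, a fall of 1.86 log2 units (SE 0.07). Between sets 2 and 1 at rest it differed by 0.13. Ephx1, a microsomal epoxide hydrolase, and Ptgis, the prostacyclin synthase, fell by 1.98 and 1.92 log2 units and differed by 0.04 and −0.01 between those sets. Set 3 held no resting arrays, so small differences between sets 2 and 1 cannot show whether set 3 is shifted. Dapk1, a death-associated kinase, fell by 1.99, Itga1, the alpha 1 integrin chain, by 1.82 and Ltbp2, a matrix protein, by 1.80 log2 units. These last 3 lost their strict calls in 10, 12 and 11 of 23 alternatives, the replicate block included.

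Most of the neutrophil markers that could be tested rose. Of 12 matched neutrophil marker genes, 7 were tested, 6 rose, and Ngp, Lcn2 and Camp, which encode granule proteins, did so in the strict test. Lcn2 and Camp each lost the strict call in 11 of 23 alternatives, the replicate block included (strict adjusted p = 0.0922 and 0.0949 in limma). Ngp lost it in 4 of 23. Ngp stood at −1.18, −1.17, −0.96, −1.28 and −0.83 at rest and at 0.91, 3.00, 3.55, 2.80 and 2.75 after poly IC (3.69 ± 0.39), at least 10.4-fold from the 30th percentile. Of the 7 tested genes, 4 lay below that percentile in all resting arrays, 3 of the 6 that rose among them, and so entered the test through the poly IC arrays. S100a8 and S100a9, the subunits of calprotectin, rose by 2.28 each. The median of the 7 genes ranged from −1.20 to −0.83 at rest and from 0.18 to 2.40 after poly IC. The defining markers Ly6g, Cxcr2 and Mmp8 were below the 30th percentile in all 10 arrays. Their part in the rises above was not tested.

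Some markers of other lineages passed the moderated rule, which called 3.28% of all tested genes higher and 2.4% lower. Car1, a carbonic anhydrase of red cells that is not on the marker lists, rose by 3.27 ± 0.41 in the strict test. Its strict call was lost in 11 of 23 alternatives, the replicate block included (strict adjusted p = 0.0627 in limma). Of 5 tested erythroid and platelet markers 1 rose, Ppbp, a platelet chemokine (1.5 ± 0.11, at least 1.38-fold from the 30th percentile). Of 14 tested monocyte and macrophage genes, 3 fell and 1 rose. Lyz2, lysozyme, fell from 3.74 to 4.27 at rest to 2.66, 0.95, 0.64, 2.97 and 0.78 (−2.40 ± 0.44), Treml4 by 1.94 and Ccr2 by 1.20 log2 units. The gene that rose was Spic, a transcription factor of red pulp macrophages (1.79 ± 0.36). Of 9 tested cDC2 markers 3 fell, Cd209a, Cd4 and Klf4. Cd209a was also counted above among the uptake receptors and lectins, and Klf4 among the immediate early genes. Of 11 tested T and NK cell markers 2 rose, Klrk1 (1.37) and Gzmb (1.10, at least 1.62-fold from the 30th percentile), and of 10 plasmacytoid markers 1, the interferon-stimulated Bst2 (1.95). The B cell markers had no call by the moderated rule, and Cd79a lay below the 30th percentile in all 10 arrays.

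**Figure D4:**
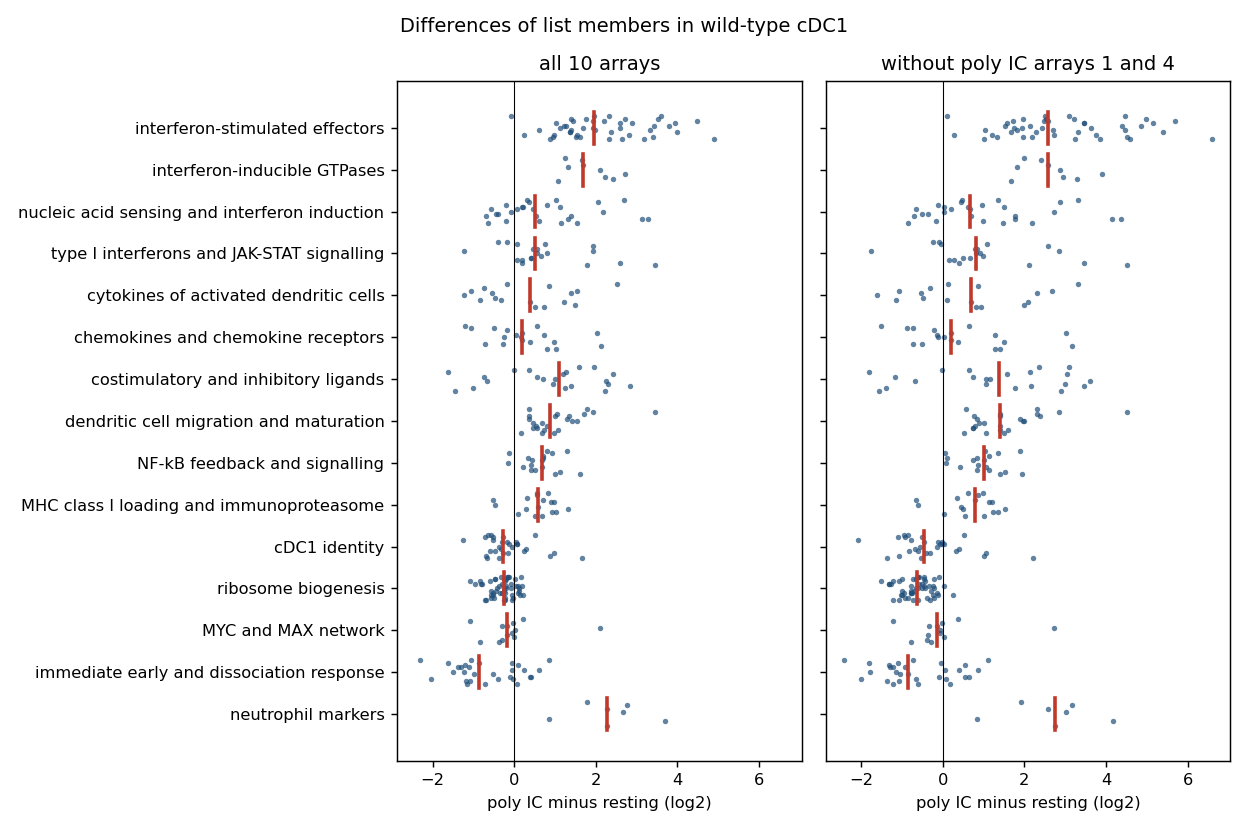
Difference between poly IC and resting wild-type cDC1 (log2, horizontal axis) for the tested members of 15 gene lists; each point is a gene and the red bar is the median of its list, over all 10 arrays (left) and without poly IC arrays 1 and 4 (right). The median of the interferon-stimulated effectors moves from 1.95 to 2.57 and that of ribosome biogenesis from −0.24 to −0.63, while that of the immediate early list stays at −0.86 and −0.85.

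Oxidative phosphorylation (35 genes tested), glycolysis (15), cholesterol synthesis (16) and the proteasome core and cap (31) had no call by the strict or the moderated rule, with medians of 0.11, −0.06, −0.10 and 0.35. Of the 31 proteasome genes, 30 had a difference above 0, against 6347 of all 13763 tested genes. Their array medians were 3.57 to 3.66 at rest and 3.84 to 4.11 after poly IC. Of 17 tested enzymes known to be induced in activated myeloid cells, 4 rose. They were Cmpk2, a mitochondrial nucleotide kinase encoded beside Rsad2 (3.42 ± 0.54), Nampt, the rate-limiting enzyme of NAD salvage (1.80), Ch25h, which makes an oxysterol (1.35, at least 2.15-fold from the 30th percentile), and Parp10 (1.18). Of 24 tested genes of the unfolded protein and ATF4 response 1 rose, Asns, asparagine synthetase (at least 1.86-fold from the 30th percentile), and 2 fell, Atf3 and Sdf2l1. Of 44 tested genes of DNA replication and mitosis 2 rose, the mitotic motor Kif11 (1.33 ± 0.15) and Top2a (1.07). Over all tested genes 3.28% rose, which is near the share of 2 in 44 here and of 1 in 24 for the ATF4 list. Of 21 tested lysosomal genes, Lgmn and Npc2 rose by 1.32 and 1.08 and Hexa, a subunit of hexosaminidase, fell from 4.30 to 4.45 at rest to 3.64, 2.45, 2.47, 3.55 and 2.18 (−1.51 ± 0.27).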

How the data were processed

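The authors deposited 1 table of log2 values for 35556 rows on 35 arrays, made with RMA in the Affymetrix Expression Console per the submitters' processing notes. Tool versions were not given in the sources used here.

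Each array was centred on its own median. Of the rows, 21789 had 1 gene symbol in the platform annotation, which gave 19938 genes, and for the 999 with several rows the row with the highest mean was used. After removal of 748 genes of the X and Y chromosomes and 82 without a chromosome, genes at or above the 30th percentile in at least 5 of the 10 arrays were tested. Tests were made with limma 3.58.1 in R 4.3.3 on the 10 arrays: treat against 1 log2 unit (main), and the moderated test with a difference of at least 1. The script was tested on simulated data. Comparing levels of sets normalized separately is a limit of the question itself.

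The comparison, the 35 gene lists (760 of 845 genes matched, 703 tested) and the arrays left out were chosen with earlier results of these data known. A rule chose the 12 genes with the highest rises and the 12 with the deepest falls among strict calls, leaving out clone and microRNA names. It also chose up to 3 strict calls each way or else the member with the largest difference in each list, and 20 fixed genes. Not all genes chosen by the rule are mentioned above. Flt3 and the members of some lists, among them oxidative phosphorylation and glycolysis, are left out. Every other gene named, the microRNAs and the promoters of Ifit1 and Ifit3 included, was chosen after its values were seen. In each list, genes counted are those matched by symbol or RefSeq synonym. The 23 alternatives covered the scaling, filter, rows, variance model, pairing and arrays. The number of arrays limits the precision.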

Additional observations from a re-analysis of the deposited data

Results flagged for a closer look

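In groups of 5 arrays, a level was singled out when its gap to the nearest other array was a larger share of the group's range than 0.71, which chance does in about 1 of 20 groups; 17 of 216 groups met this. Poly IC array 1 accounted for most of them. It was lowest for Ms4a6d (0.15), Camp (1.05), Ms4a6c (3.17), Lgals3bp (4.61), Lgals9 (2.78), Bst2 (4.19), Irf7 (5.06) and the median of the neutrophil markers (0.18), and highest for Jun (3.99) and Itga1 (0.09). Each of these values lay on the side of the resting arrays.

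Resting array 5 was highest for Tspo (4.19) and Cd274 (2.72). Resting array 3 was lowest for Adgrf5 (0.87), Ppbp (−2.15) and Myc (1.51). Resting array 1 was highest for Ptgis (3.03) and resting array 4 lowest for Sdc1 (−0.75).

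Genes left out of the comparison also carried signal. Xist had a mean of 4.98 in the resting arrays, and in the poly IC arrays the Y-linked Eif2s3y had a mean of 1.75, Kdm5d of 1.45 and Uty of 1.18, each below the 30th percentile in the other group.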

How the results depend on the processing

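No alternative turned the sign of a called gene. The strict counts of 17 higher and 23 lower genes became 451 and 331 with the moderated test and a difference of at least 1, 351 and 214 with array weights, 76 and 60 with the 4 groups of sets 2 and 3 in a single fit, and 464 and 289 without poly IC arrays 1 and 4. Against 2 log2 units limma treat called 0 and 0, with 25 and 5 genes at an unadjusted p under 0.05. Leaving out 1 array at a time gave 4 to 136 higher and 10 to 77 lower; the highest counts were those without poly IC array 1. By the moderated rule (451 and 331), 734 and 625 were called without poly IC arrays 1 and 4, 555 were lower with array weights, and leaving out 1 array gave 364 to 567 higher and 283 to 441 lower; these alternatives of the moderated rule were chosen after seeing the data.

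Replicate numbers are shared by the groups, and the labels do not say that they pair the arrays. Same-numbered arrays correlated in their deviations at −0.05 to 0.24, and only number 5 matched its own number best. With 5 numbers these correlations cannot exclude pairing. With a replicate block the strict counts were 7 and 12, and the moderated ones 452 and 330. Of the 40 strict calls, 11 (Adgrf5, Cd300c, Ephx1, G930009F23Rik, Jun, Map2k6, Mir23a, Mir27a, Mt2, Ptgis and Rhob) held in 22 of 23 alternatives, all but the test against 2 log2 units. The other 29 strict calls held in 8 to 21 of the 22 or 23 alternatives in which they were tested. Among them, Dlx1as and Ms4a6d held in 21 of 22 and were also lost only in the test against 2 log2 units. Of the 40, 22 were lost with the replicate block.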
